A study of Mus musculus with 18 samples.

Results

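The endothelial surface receptors followed here are 10 mouse genes, taken by name from the deposited tables: the VEGF receptors Kdr, Flt1 and Flt4, the angiopoietin receptor Tek with its relative Tie1, the junction and adhesion proteins Cdh5, Pecam1 and Esam, the co-receptor Eng and the sialomucin Emcn. Of the 10 members, 9 were found among the 20115 genes of the table of differentiation stages, and all 10 among the 20430 genes of the table of reprogrammed fibroblasts. Eng in the stages was not analysed here. Each of the 9 had a single transcription start site row in the table of stages.

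RNA-seq was carried out on mouse embryonic stem cells of strain 129 carrying a brachyury-GFP reporter, which were differentiated in vitro and sorted at successive stages, and on mouse embryonic fibroblasts (MEFs) of the same strain forced towards a blood fate with transcription factors. The stages were undifferentiated embryonic stem cells (ESC), mesoderm (MES, brachyury-GFP positive and FLK1 negative), hemangioblast (HB, brachyury-GFP and FLK1 positive), hemogenic endothelium (HE, TIE2 and KIT positive, CD41 negative), hematopoietic progenitors (HP, CD41 positive) and macrophages (MAC, CD11b positive, grown out of CD41-positive cells). The labels give 2 samples for each of 5 stages, and the table holds 1 value per stage over the replicates. The HE column belongs to a sample of an earlier series and was used as the authors' value. The MEFs came from embryonic day 14.5 embryos, were wild type or carried a doxycycline-inducible TAL1 cassette with rtTA (iTal1-2A-GFP), and were depleted of cells bearing CD45, CD41, CD31 or CD117 before transduction. They were analysed on day 12 and day 21 as untreated fibroblasts (uFIB) or with Scl (Tal1) and Lmo2 (SL), with Fli1, Gata2 and Lmo2 (FGL), or with all 4 factors (SFGL), with 1 library for each condition and day. No group therefore carries a replicate error, and no difference given here was tested. Values are FPKM (fragments per kilobase of transcript, scaled to the number of aligned fragments), which are per length and so can be set side by side between genes within a table. A gene was called different when its FPKM, with 0.001 added, differed at least 2-fold and it reached 1 FPKM in at least 1 of the 2 conditions, and the share of all genes so called is given for each pair of conditions.

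VEGF receptors are receptor tyrosine kinases: KDR (VEGFR2, also named FLK1) carries most of the growth signal of VEGF-A, FLT1 (VEGFR1) binds VEGF-A tightly and can act as a trap for it, and FLT4 (VEGFR3) binds VEGF-C and VEGF-D in lymphatic and early blood vessels. TEK (TIE2) is the receptor for angiopoietins and TIE1 is its close relative with no ligand of its own firmly known. VE-cadherin (Cdh5), PECAM1 (CD31) and ESAM sit at the contacts between endothelial cells. In the embryo, blood cells arise from hemogenic endothelium, which loses its endothelial program as the cells round up and leave the vessel wall.

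All 9 measured members were highest in HE. Their summed level was 16.4 FPKM in ESC, then 5.93 in MES, 89.9 in HB, 468 in HE, 102 in HP and 49.96 in MAC. Kdr was already near its HE level in HB, while the other members reached most of theirs in HE only. After HE every member was lower, but Tie1 and Pecam1 kept far more of their level in HP and MAC than Tek, Cdh5 or Esam. Because the cells were sorted on FLK1 and TIE2 protein, the low Kdr in MES, the high Kdr in HB and the high Tek in HE restate the sort and are not findings. In such bulk samples a smaller share of expressing cells and less RNA per cell cannot be told apart.

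**Figure D1:**
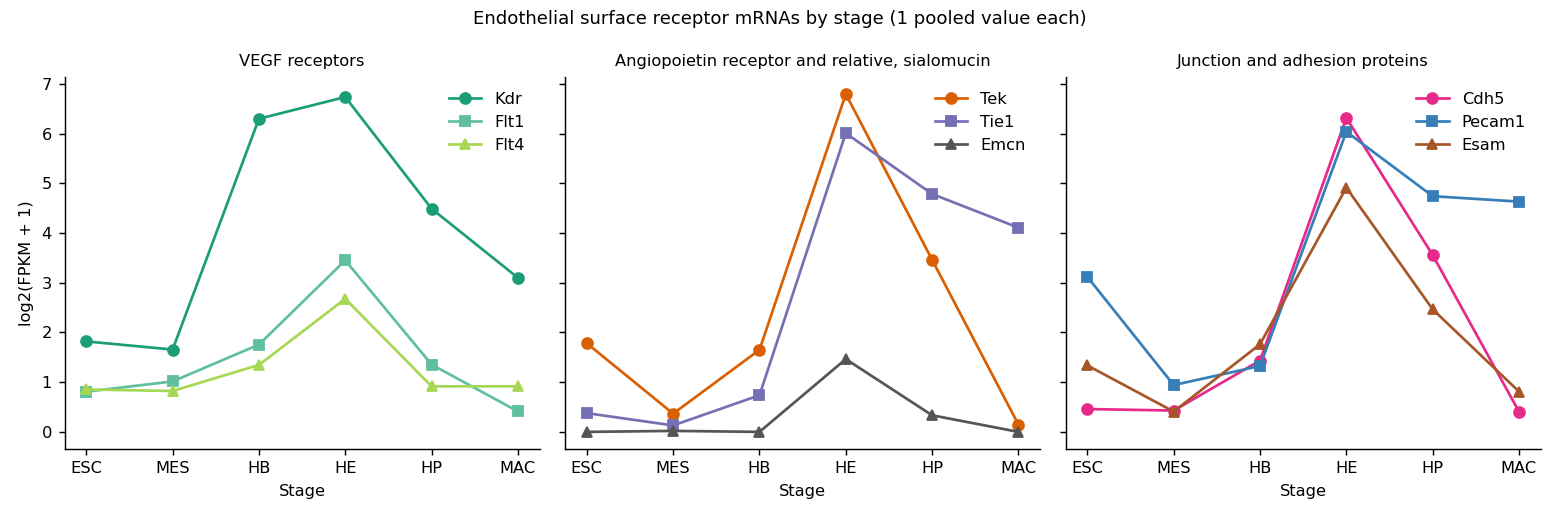
Level of the 9 members with stage values, as log2(FPKM + 1) on the y axis, across the 6 stages on the x axis, in 3 panels by role, each point being the authors' single value for a stage. All 9 lines peak in HE; Kdr is already at 77.6 FPKM in HB, and the lines of Tie1 and Pecam1 stay above 16 FPKM in MAC.

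Kdr (chromosome 5, 75933270 to 75978428, minus strand, mm10) was the earliest member. It measured 2.53 FPKM in ESC, then 2.15 in MES, 77.6 in HB, 105 in HE, 21.4 in HP and 7.56 in MAC. Kdr made up 86.3% of the summed level of the 9 members in HB and 22.5% in HE. From HB to HE it was 1.36-fold higher, which is below the limit for a call, and it was the only member not called at that step. Kdr was the only member above 10 FPKM in HB.

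Flt1 (chromosome 5, 147562196 to 147725988, minus strand) was expressed at a lower level throughout. Flt1 values were 0.752 FPKM for ESC, 1.02 in MES, 2.38 in HB, 9.93 in HE, 1.56 in HP and 0.330 in MAC. The step from HB to HE was 4.18-fold for Flt1, against 1.36-fold for Kdr. The ratio of Kdr to Flt1 FPKM was 3.36 in ESC, 2.11 in MES, 32.7 in HB, 10.6 in HE, 13.8 in HP and 22.9 in MAC, so Kdr exceeded Flt1 in every stage. MES was sorted as FLK1 negative and HB as FLK1 positive, so the lowest ratio in MES and the highest in HB go with the sort and are not findings.

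Flt4 (chromosome 11, 49609679 to 49652739, plus strand) was the lowest of the VEGF receptors in HE. It measured 0.806 FPKM in ESC, then 0.769 in MES, 1.54 in HB, 5.39 in HE, 0.886 in HP and 0.887 in MAC. HE was the only stage in which Flt4 passed 2 FPKM, and its level in HP was back near that of ESC.

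Tek and Tie1 lie on chromosome 4 (Tek at 94739300 to 94874939 on the plus strand, Tie1 at 118471191 to 118489849 on the minus strand) and shared the peak but not what came after it. Tek measured 2.44 FPKM in ESC, then 0.290 in MES, 2.14 in HB, 110 in HE, 9.996 in HP and 0.107 in MAC. Tie1 measured 0.299 FPKM in ESC, then 0.0942 in MES, 0.667 in HB, 63.3 in HE, 26.5 in HP and 16.2 in MAC. Tek led in ESC, MES, HB and HE, and Tie1 led in HP and MAC. The ratio of Tie1 to Tek FPKM was 0.122 in ESC, 0.325 in MES, 0.312 in HB, 0.576 in HE, 2.66 in HP and 152 in MAC. HP kept 9.09% of the HE level of Tek and 41.9% of that of Tie1. MAC kept 0.0969% and 25.6%.

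The junction genes showed the same division. Cdh5, which encodes the cadherin of endothelial adherens junctions (chromosome 8, 104101625 to 104144502, plus strand), measured 0.375 FPKM in ESC, then 0.346 in MES, 1.70 in HB, 78.5 in HE, 10.8 in HP and 0.327 in MAC. Pecam1, which encodes an adhesion receptor that platelets and leukocytes also carry (chromosome 11, 106654218 to 106715281, minus strand), measured 7.68 FPKM in ESC, then 0.920 in MES, 1.51 in HB, 64.6 in HE, 25.7 in HP and 23.8 in MAC. Esam, a tight junction adhesion molecule (chromosome 9, 37528089 to 37538319, plus strand), measured 1.53 FPKM in ESC, then 0.328 in MES, 2.39 in HB, 29.1 in HE, 4.52 in HP and 0.754 in MAC. Cdh5 and Esam were thus low on both sides of HE, whereas Pecam1 was the highest member in ESC and again in MAC. The ratio of Pecam1 to Cdh5 FPKM was 0.823 in HE, 2.39 in HP and 72.8 in MAC.

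Emcn, a sialomucin of venous and capillary endothelium (chromosome 3, 137341078 to 137431069, plus strand), was the least expressed member. It was listed at 0 in ESC, HB and MAC, and measured 0.0141 FPKM in MES, 1.76 in HE and 0.260 in HP. HE was the only stage in which it reached 1 FPKM.

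**Figure D2:**
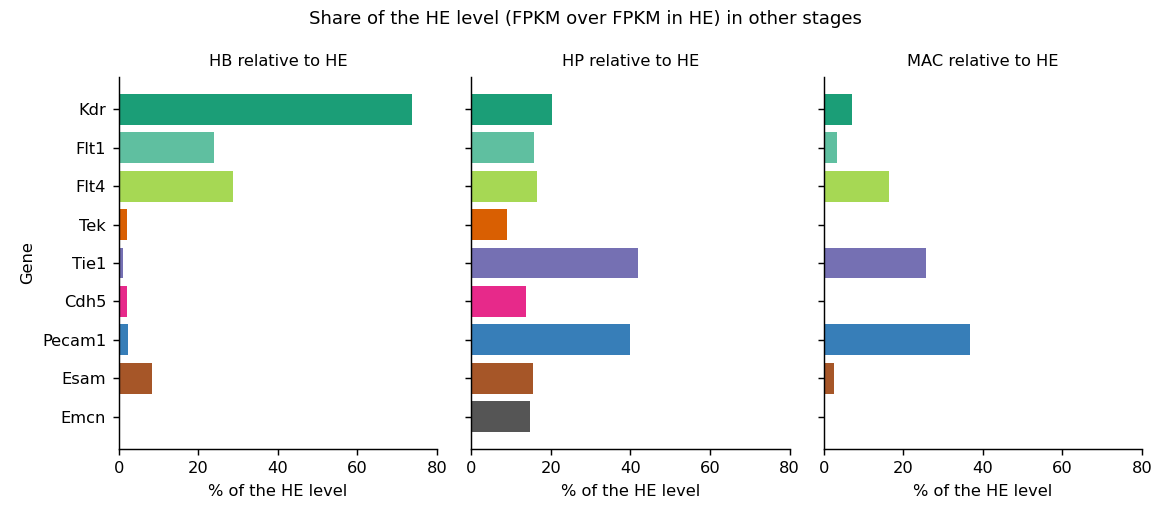
Level of each member in HB, HP and MAC as a percentage of its own level in HE (x axis, from 0), with the genes on the y axis and 1 authors' value per bar. In HB only Kdr stands high, at 73.6%; in HP Tie1 and Pecam1 lead with 41.9% and 39.8%, and in MAC Pecam1 and Tie1 keep 36.8% and 25.6% while Tek and Cdh5 keep 0.0969% and 0.416%.

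The steps between successive stages give the timing of these changes. From ESC to MES, 5 of the 9 members reached 1 FPKM in either stage and 3 were lower (Tek 8.42-fold, Pecam1 8.34-fold and Esam 4.66-fold), where 12% of 10626 genes were lower. All 3 passed the minimum through their ESC value alone. ESC also held RNA of embryonic globins, with Hbb-bh1 at 29.9 FPKM against 0.268 in MES, and of smooth muscle genes, whose summed level over 4 genes was 151 FPKM against 71.2. The part of other cells in the ESC values of the members was not tested.

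From MES to HB, 7 members were measured at 1 FPKM or more in either stage and 6 were higher, against 4.05% of 10229 genes. Kdr changed 36.1-fold, the top rank of all genes by log2(FPKM + 1), and was chosen by the sort. Esam changed 7.30-fold, Tek 7.38-fold, Cdh5 4.92-fold, Flt1 2.33-fold and Flt4 2.01-fold, the last just past the limit and not called when all stages were set to the same upper quartile. Pecam1 was 1.64-fold higher and not called. Among these, Kdr and Flt1 alone reached 1 FPKM in MES too, and apart from Kdr no member passed 2.5 FPKM in HB, so these changes were in genes of low level.

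From HB to HE, 8 of the 9 members were higher, where 12.7% of 10395 genes were. Tie1 was 94.9-fold higher, Tek 51.4-fold, Cdh5 46.1-fold, Pecam1 42.9-fold and Esam 12.2-fold. By the change in log2(FPKM + 1), Tie1 ranked 4, Tek 6, Cdh5 8, Pecam1 13 and Esam 52 from the top of all genes. The median change of the 9 members was 3.15 on that scale and that of all genes -0.01. Tie1 and Emcn passed the minimum through HE alone, and Tek was chosen by the sort on TIE2. HE also carried RNA of smooth muscle and fibroblast genes. Acta2 stood at 339 FPKM in HE against 0.705 in HB, Tagln at 194 against 25.8, and Col1a2 at 65.95 against 0.897. Acta2 and Tagln were the only smooth muscle genes called higher, and Acta2 passed the minimum through HE alone. Cnn1 was at 4.25 FPKM in HE against 4.02 in HB, and Myh11 at 0.488 against 0.022. The summed level of the 4 smooth muscle genes was 538 FPKM in HE against 30.5 in HB and 126 in HP, with none at 0, and that of the 7 fibroblast genes was 112, 29.4 and 38.3. Of the fibroblast genes only the 3 collagen genes were called higher from HB to HE, and of these Col1a2 and Col3a1 passed the minimum through HE alone. Pdgfra was called lower (16.7 FPKM in HB, 4.14 in HE), as were 799 of 10395 genes. Twist1 was at 8.15 and 5.95, and Dcn and Prrx1 did not pass 0.34 FPKM in either stage. The part of such cells in the levels of the receptors was not tested, and since the HE value comes from an earlier series, stage and experiment cannot be told apart at the steps into and out of HE.

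From HE to HP, all 9 members were lower, where 14.2% of 10379 genes were. Flt4 and Emcn passed the minimum through HE alone. Tek fell most, by 3.33 on the log2(FPKM + 1) scale, ranking 8 from the bottom of all genes. Because HE was sorted on TIE2 and HP on CD41, the place of Tek at this step goes with the sort and is not a finding. The falls of Cdh5, Esam, Kdr, Flt1 and Flt4 lay between 1.76 and 2.76 on that scale. Pecam1 was 2.51-fold lower and Tie1 2.38-fold lower, the smallest ratios among the members. Members fell by a median of 2.10, against 0.09 for all genes.

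The pair HB and HP leaves HE out. Here 4 of 8 members measured were higher in HP, against 12.2% of 10523 genes, and 1 was lower, against 12.8%. Tie1 was 39.8-fold higher, Pecam1 17.1-fold, Cdh5 6.32-fold and Tek 4.68-fold. Tie1 passed the minimum through HP alone, which favours a call in that direction, and Flt4 passed it through HB alone. Kdr was 3.62-fold lower. Because HB was sorted on FLK1 and HP on CD41, the lower Kdr goes with the sort and is not a finding. Flt1, Flt4 and Esam lay within 2-fold. Blood progenitors therefore still held more Tie1, Pecam1, Cdh5 and Tek RNA than hemangioblasts, with a summed level of the 5 blood progenitor markers of 159 FPKM in HP and 6.96 in HB.

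From HP to MAC, 5 of 7 members measured were lower, where 16.9% of 10842 genes were. Tek was 93.8-fold lower, Cdh5 32.9-fold, Esam 5.99-fold, Flt1 4.71-fold and Kdr 2.83-fold. All of these but Kdr passed the minimum through HP alone. Tie1 was 1.64-fold lower and Pecam1 1.08-fold lower, neither of them called. The median over genes averaging 1 FPKM or more moved by 0.35 on the log2(FPKM + 1) scale between these stages, and relative to that median Pecam1 and Tie1 were lower by 0.46 and 1.02. When all stages were set to the same upper quartile this median moved to -0.23 and Tie1 was called lower as well. The macrophage markers were present in MAC as labelled, with a summed level over 6 genes of 1263 FPKM against 16.8 in HP. Red cell markers fell from 6839 to 16.1 FPKM summed over 5 genes, whereas the summed level of the 6 megakaryocyte genes was 132 FPKM in HP and 311 in MAC, most of it Pf4 at 274 FPKM. PECAM1 is carried by platelets and their precursors too. The part of megakaryocyte RNA in the Pecam1 and Tie1 values of MAC was not tested.

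**Figure D3:**
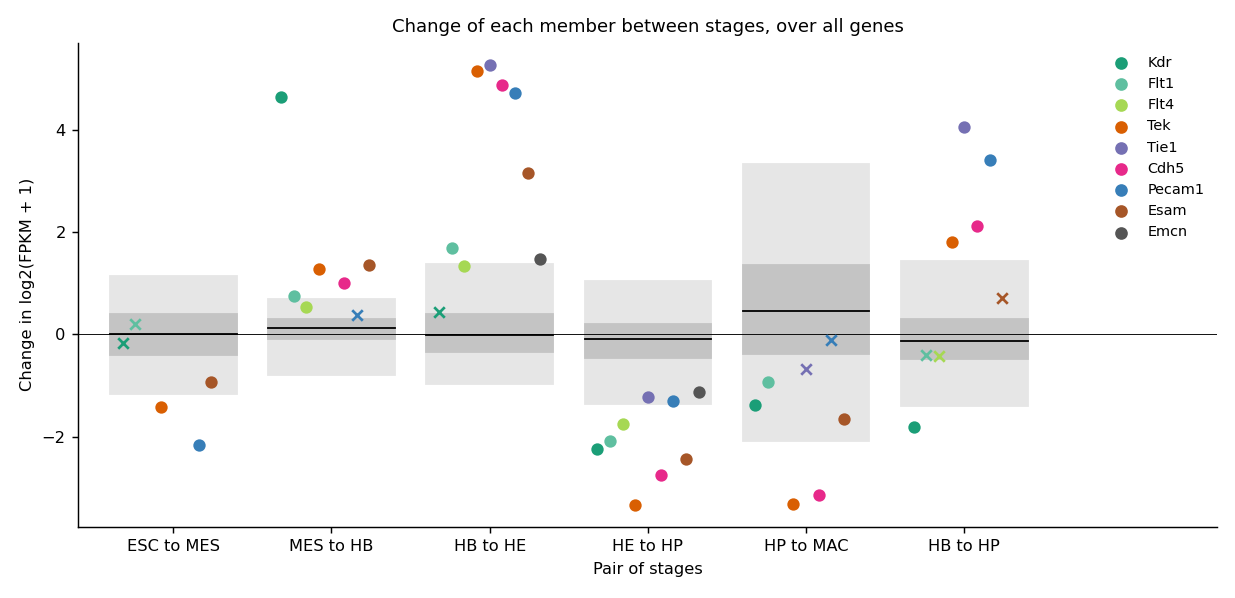
Change in log2(FPKM + 1) (y axis) of each member that reached 1 FPKM in either stage, for 6 pairs of stages (x axis), with circles for called and crosses for uncalled changes, over grey boxes for all genes tested (light, 5 to 95 percent; dark, 25 to 75 percent; line, median). From HB to HE, Tie1, Tek, Cdh5 and Pecam1 lie between 4.71 and 5.27, above the box, and from HE to HP all 9 lie below 0.

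The order of levels changed with the stage. In HE, Tek (110) and Kdr (105) led, followed by Cdh5, Pecam1 and Tie1 between 63.3 and 78.5 FPKM, then Esam, Flt1, Flt4 and Emcn. In HP the leaders were Tie1 (26.5), Pecam1 (25.7) and Kdr (21.4), which lie within 1.3-fold of each other. In MAC only Pecam1 (23.8) and Tie1 (16.2) passed 10 FPKM. With no replicate values, neighbours in these orders cannot be ranked against their spread. Across the 6 stages, on log2(FPKM + 1), the Pearson correlation between members ranged from 0.38 (Kdr with Pecam1) to 0.99 (Tek with Esam) over 36 pairs, with a median of 0.78. Tie1 was closest to Pecam1 (0.93), and Tek was closer to Cdh5 (0.97) and Esam (0.99) than to Tie1 (0.68). All these values share 6 points and the HE column, and are a description.

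Among all genes with at least 10 FPKM in some stage, the profiles most like that of Tek were those of Plvap and Mcu (r of 0.99 each over 6 stages) and, of the members, Esam. Cdh5 ran closest to Tspan18 (0.997), Gja4 (0.996) and Akap5 (0.992). For Emcn they were Tmem204 (0.997), Sept11 (0.992) and Tdo2 (0.985), and for Flt4 Bmp6 (0.99), Tmem2 (0.98) and the endothelial nitric oxide synthase gene Nos3 (0.98). Flt1 went with Rcn3 (0.998), the fibrillin gene Fbn1 (0.988) and Ramp2 (0.981). Esam had Mcu (0.99), Tek (0.99) and Arhgef12 (0.98) as its neighbours. Tie1 had Fyn, Lrrc8b and Nsmce1 (0.99 each), none of them shared with Tek. Fewer genes resembled Kdr and Pecam1: 2 genes reached 0.95 with each, against 24 with Tek and 25 with Cdh5. For Kdr these were Tnks (0.98) and BC018507 (0.96), followed by Pigm (0.94), and for Pecam1 Crim1 and Tagln2 (0.96 each), followed by Jun (0.95).

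The sequences just before the transcription start of the receptor tyrosine kinases are given because these genes peak together in HE and differ in how silent they are elsewhere. Shown are the 250 bases upstream of the RefSeq start (GRCm38.p6), read 5′ to 3′ on the strand of the gene, for Kdr (chr5:75978456-75978705, minus), Flt1 (chr5:147726012-147726261, minus), Tek (chr4:94739039-94739288, plus) and Tie1 (chr4:118489850-118490099, minus). Capitals mark AGGAAG or its reverse complement CTTCCT, a form of the motif that ETS family factors bind.
Kdr: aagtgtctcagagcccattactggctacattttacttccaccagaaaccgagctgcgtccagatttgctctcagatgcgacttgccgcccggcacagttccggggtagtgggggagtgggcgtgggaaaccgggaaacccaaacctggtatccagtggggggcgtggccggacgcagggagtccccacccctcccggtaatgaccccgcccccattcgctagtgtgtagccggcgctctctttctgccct
Flt1: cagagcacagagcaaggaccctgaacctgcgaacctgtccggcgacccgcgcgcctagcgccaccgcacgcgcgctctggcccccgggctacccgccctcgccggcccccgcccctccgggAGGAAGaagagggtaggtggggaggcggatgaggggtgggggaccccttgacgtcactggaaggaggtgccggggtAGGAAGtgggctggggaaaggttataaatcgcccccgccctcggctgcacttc
Tek: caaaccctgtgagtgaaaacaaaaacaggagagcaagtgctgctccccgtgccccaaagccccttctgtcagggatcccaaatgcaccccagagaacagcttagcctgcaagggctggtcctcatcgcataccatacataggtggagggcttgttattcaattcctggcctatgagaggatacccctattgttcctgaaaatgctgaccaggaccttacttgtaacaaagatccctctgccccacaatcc
Tie1: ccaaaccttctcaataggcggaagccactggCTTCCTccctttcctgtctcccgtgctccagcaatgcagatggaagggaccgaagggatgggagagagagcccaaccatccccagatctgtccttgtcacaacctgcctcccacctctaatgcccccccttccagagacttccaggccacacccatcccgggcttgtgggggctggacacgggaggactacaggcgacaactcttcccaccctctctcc
The motif is present 2 times in the Flt1 window, at a single place in that of Tie1 and at none in those of Kdr and Tek. Of the 7 members matched in the promoter table, 4 held it (Flt1, Tie1, Emcn and Eng), and 29.5% of all 32851 windows of this length did. Base composition divided the genes differently. The windows of Flt1, Kdr and Flt4 held 23, 16 and 16 CpG dinucleotides, those of Tie1, Eng, Tek and Emcn 6, 4, 2 and 1, and the median over all windows was 6. The CpG-rich windows thus belonged to the VEGF receptors. Their lowest stage values were 2.15 FPKM for Kdr, 0.330 for Flt1 and 0.769 for Flt4, against 0.107 for Tek, 0.0942 for Tie1 and 0 for Emcn. This order did not hold in every stage. In ESC Tek was at 2.44 FPKM against 0.752 for Flt1 and 0.806 for Flt4, and in HP and MAC Tie1 exceeded all 3 VEGF receptors. A link between CpG content and level was not tested. The marked motifs are letters in a window and not sites shown to be bound.

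The ligands of these receptors were less alike. Of 8 ligand genes, 5 reached 1 FPKM at the step from HB to HE and 3 were higher, where 12.7% of all genes were. Of the higher ones, Angpt1 passed the minimum through HE alone. Vegfa, the ligand of KDR and FLT1, measured 5.17 FPKM in HB, 15.1 in HE and 3.38 in HP, and so was higher in HE than on either side of it. Angpt1, the activating ligand of TEK, measured 0.0509 FPKM in HB, 4.30 in HE and 4.48 in HP, and stayed level where Tek went from 110 to 9.996 FPKM. Angpt2, which opposes it in many vessels, was highest in MAC at 2.98 FPKM, and Figf, which encodes VEGF-D, did not pass 0.2 FPKM in any stage.

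Among 7 receptor partners, 3 were higher from HB to HE, against the same 12.7%: Ptprb, the phosphatase of TEK and VE-cadherin (1.42 to 18.6 FPKM), Acvrl1, a TGF-beta family receptor that works with endoglin (0.812 to 12.3), and Tgfbr2 (1.82 to 13.6). From HE to HP 5 of the 7 were lower, where 14.2% of all genes were. From HP to MAC 6 of the 7 were higher, where 38.1% of genes were, and only Ptprb was lower, where 16.9% were. Acvrl1 passed the minimum through HE alone at both steps around HE, and through MAC alone from HP to MAC. Ptprb passed it at that last step through HP alone. The neuropilins Nrp1 and Nrp2, which bind VEGF together with its receptors, reached 83.3 and 74.5 FPKM in MAC, above their HE values of 67.6 and 57.7, while Kdr stood at 7.56. Of the 8 junction partners with stage values, 7 were measured from HB to HE and 3 were higher, where 12.7% of all genes were. Among them was claudin 5 (Cldn5, 0.590 to 7.36 FPKM), which passed the minimum through HE alone, at this step and from HE to HP. From HE to HP 5 of 7 measured were lower, where 14.2% of all genes were. From MES to HB 0 of 6 measured were called, where 4.05% of 10229 genes were higher and 644 genes lower.

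Of the 20 other endothelial genes, 17 were measured at the step from HB to HE and 15 were higher, where 12.7% of all genes were, with a median change of 2.20 on the log2(FPKM + 1) scale against -0.01 for all genes. Of the higher genes, Robo4, Vwf, Nos3, Stab1, Lyve1, Cd34, Sox18 and Erg passed the minimum through HE alone, which favours a call in that direction. Egfl7 measured 30.8 FPKM in HB and 82.2 in HE, Rasip1 3.31 and 37.7, and Erg, an ETS factor of endothelium, 0.768 and 20.8. The lone gene that was lower was Etv2, the early ETS factor of hemangioblasts, at 46.7 FPKM in HB and 6.43 in HE. Over all genes, 799 of 10395 were lower at this step. From HE to HP 13 of 18 were lower, where 14.2% of all genes were, and 3 were higher, where 713 of 10379 genes were. The exceptions were Cd34 (17.6 to 48.9 FPKM), Vwf (1.03 to 2.67) and Selp (0.0538 to 1.76), genes that blood progenitors or megakaryocytes also use. Of the lower genes, Robo4, Nos3, Stab1, Sox7 and Sox18 passed the minimum through HE alone, and Selp passed it through HP alone.

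In the fibroblasts the receptors parted in another way. With SL on both days and SFGL on day 21, Flt4, Cdh5, Pecam1 and Esam were higher than in untreated fibroblasts of the same day, and with SFGL on day 12 Pecam1 alone was, whereas Kdr, Tek and Tie1 stayed below 1.3 FPKM in every library, and Flt1 and Eng, both present in untreated fibroblasts, were not higher by 2-fold. The 2 tables were normalized separately, so no level is compared between fibroblasts and stages. Before the results, the labels were set against the factor genes, whose values cannot separate transgene from endogenous RNA. Tal1 was at 58.0 FPKM or more in all SL and SFGL libraries. In the libraries labelled FGL, Tal1 was 7.04 FPKM on day 12 against 0.0414 in uFIB, and Fli1 was 3.35 FPKM on day 21 against 3.02 in uFIB, neither of which follows the label. Gata2 and Fli1 were also high in the libraries labelled SL (68.8 and 46.7 FPKM on day 12). Depth behind low values was judged from the size of the smallest FPKM steps, which put the libraries at roughly 9640000 to 25700000 reads.

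Pecam1 changed most. It measured 0.0896 FPKM in uFIB, 0.562 in FGL, 10.5 in SL and 26.4 in SFGL on day 12, and 0.0627, 0.122, 6.65 and 14.8 on day 21. Both uFIB values rest on about 5 reads and on cells from which CD31-bearing cells had been removed at the start, so the folds of 117 for SL and 294 for SFGL on day 12, and of 106 and 236 on day 21, are imprecise. Pecam1 was higher in SFGL than in SL on both days, by 2.51-fold on day 12 and 2.22-fold on day 21.

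Cdh5, Flt4 and Esam took the opposite order. Cdh5 measured 0.909 FPKM in uFIB, 0.388 in FGL, 3.10 in SL and 1.21 in SFGL on day 12, and 0.303, 0.344, 3.92 and 2.66 on day 21. Flt4 measured 0.339, 0.381, 1.93 and 0.844 FPKM on day 12 and 0.325, 0.346, 5.79 and 3.13 on day 21, in the same order of conditions. Esam measured 0.0993, 0.0890, 1.59 and 0.759 FPKM on day 12, was listed at 0 in uFIB and FGL on day 21, and measured 3.16 in SL and 2.01 in SFGL there. All 3 were higher in SL than in SFGL on both days, and higher on day 21 than on day 12 in SL and in SFGL. The uFIB values of Esam rest on about 3 reads or none, so no fold is given for it.

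By the call rule, 4 members were higher and 1 was lower among 7 measured in SL on day 12, where 16.3% of 12436 genes were higher and 18.4% lower. In SL on day 21 the 4 higher members stood among 6 measured, where 14.6% of genes were higher and 15.9% lower. In SFGL on day 21 they were again 4 of 6, with 16.5% of genes higher and 20.4% lower. In each case these were Flt4, Cdh5, Pecam1 and Esam, and each passed the minimum through the reprogrammed library alone. In SFGL on day 12 Pecam1 was higher and Flt1 lower among 4 measured, where 16.9% of 12425 genes were higher and 21.7% lower, so that 1 member stood in each direction. In the libraries labelled FGL none of the 2 members measured, Flt1 and Eng, was called, where 3.91% of genes were higher and 1.18% lower on day 12, and 1.13% and 0.976% on day 21.

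SFGL against SL showed fewer changes among all genes. On day 12 the higher member was Pecam1, where 0.622% of 11899 genes were higher, and the lower ones were Flt4, Cdh5 and Esam, where 2.05% were lower. Flt4 and Esam passed the minimum there through SL alone. On day 21 Pecam1 alone was called, where 1.73% of 11999 genes were higher, while Flt4 was 1.85-fold, Cdh5 1.47-fold and Esam 1.58-fold lower. The 4 members thus kept their direction on both days, and 3 of them passed the limit only on day 12.

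Flt1 was the most abundant member in untreated fibroblasts on day 12. It measured 40.6 FPKM in uFIB, 48.2 in FGL, 17.9 in SL and 11.6 in SFGL on day 12, and 9.37, 9.19, 11.2 and 6.73 on day 21. Between the 2 uFIB libraries Flt1 was 4.33-fold lower on day 21, a change seen in this direction for 2.7% of 11830 genes. The lower Flt1 in SL and SFGL on day 12, by 2.27-fold and 3.51-fold, was a smaller difference than that between the untreated libraries, and the call in SL depends on the reference. Against the mean of both uFIB libraries, Flt1 on day 12 fell by 0.46 on the log2(FPKM + 1) scale in SL, which is no longer called, and by 1.05 in SFGL, which still is. Against that mean the day 21 values fell by 1.09 in SL, 1.75 in SFGL and 1.35 in FGL. Taken as deposited, the 4 libraries of day 21 lay within 1.7-fold of each other.

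Eng measured 8.30 FPKM in uFIB, 10.9 in FGL, 7.41 in SL and 4.57 in SFGL on day 12, and 9.68, 14.4, 14.6 and 7.36 on day 21. Endoglin is a TGF-beta co-receptor that mesenchymal cells carry as well as endothelium, and no reprogrammed library differed 2-fold from uFIB of its day. SFGL was the lowest library on each day. Eng (chromosome 2, 32646595 to 32682669, plus strand, GENCODE) shares up to 61 bases of an exon with Fpgs on the opposite strand, and whether strand was used in the authors' estimates is not given in the sources used here.

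The remaining members were low in every library, and Tie1 and Emcn were near the limit of detection. Kdr measured 0.748 FPKM in uFIB, 0.680 in FGL, 0.173 in SL and 0.119 in SFGL on day 12, and between 0.102 and 0.159 FPKM in all libraries of day 21. On day 12 it was 4.33-fold lower in SL and 6.29-fold lower in SFGL than in uFIB (about 26, 13 and 73 reads). These values lie below the minimum for a call, and Kdr was 7.35-fold lower in uFIB on day 21 than on day 12. Tek measured 0.748, 0.911, 1.29 and 0.670 FPKM on day 12 and 0.797, 0.773, 0.404 and 0.285 on day 21, in the same order. Tie1 lay between 0.0148 and 0.235 FPKM, which is about 1 to 19 reads, with the lowest values in both uFIB libraries. Emcn lay between 0 and 0.617 FPKM, about 0 to 35 reads. Tek and Tie1 were thus at most 1.29 FPKM in any fibroblast library.

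**Figure D4:**
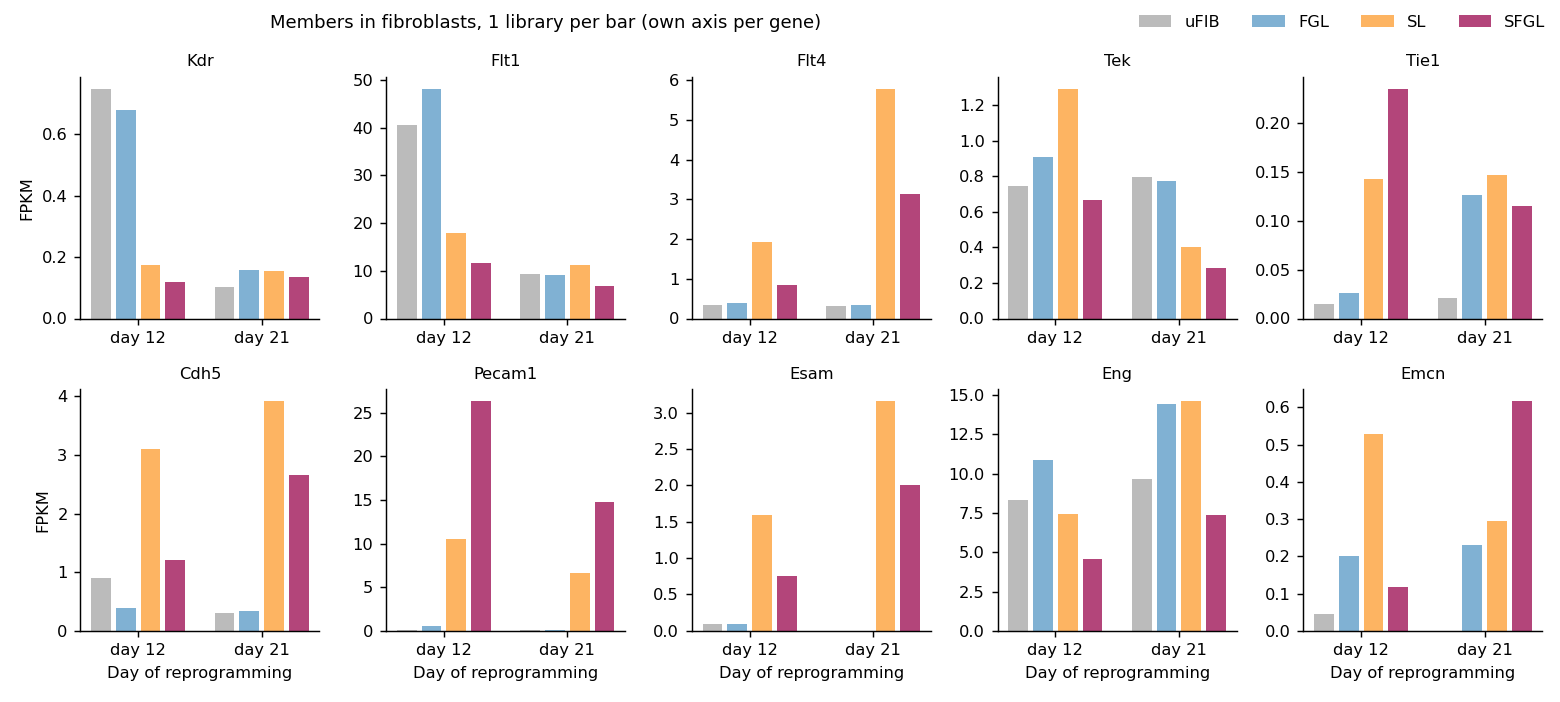
FPKM (y axis, from 0, own scale for each gene) of the 10 members in 8 fibroblast libraries, grouped by day (x axis) and coloured by condition, with 1 library per bar. Pecam1 is tallest in SFGL (26.4 and 14.8), Cdh5, Flt4 and Esam are tallest in SL, and Flt1 is at 40.6 in uFIB on day 12 and 9.37 on day 21.

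The ligand genes moved against Flt4. Figf, whose product VEGF-D binds FLT4, measured 201 FPKM in uFIB, 208 in FGL, 35.2 in SL and 28.2 in SFGL on day 12, and 133, 183, 33.0 and 27.7 on day 21. Vegfc, the other FLT4 ligand, was 12.3 FPKM in uFIB against 4.96 in SL and 4.08 in SFGL on day 12. Vegfa stayed between 41.6 and 65.8 FPKM in all 8 libraries. Of the 8 ligand genes 5 were lower in SL and 5 in SFGL on day 12, and 4 and 5 on day 21, where between 15.9% and 21.7% of all genes were lower. Pgf, lower on day 12, passed the minimum there through uFIB alone. The fibroblast markers fell in the same libraries, with 8 of 8 lower in SL and SFGL on day 12 and a summed level of 7119 FPKM in uFIB against 2454 in SL and 1980 in SFGL, and whether the fall of the ligands went with the fibroblast share was not tested.

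Other endothelial genes were mixed in the same way as the members. In SL 10 of 13 measured were higher and 2 lower on day 12, against 16.3% and 18.4% of all genes, and 9 of 13 higher and 2 lower on day 21, against 14.6% and 15.9%. In SFGL 9 of 12 were higher on day 12 and 10 of 13 on day 21, against 16.9% and 16.5%, with 2 lower on each day, against 21.7% and 20.4%. The lymphatic and sinusoidal receptor gene Lyve1 measured 0.0682 FPKM in uFIB against 14.5 in SL and 8.99 in SFGL on day 12, and 0.0635, 65.6 and 27.3 on day 21, so that it followed the order of Flt4. Of the higher ones, only Egfl7 and Cd34 on both days and Erg on day 21 reached 1 FPKM in uFIB. The rest passed the minimum through the reprogrammed library alone. Ramp2 and Mcam were the lower ones in every case. Etv2 was listed at 0 in all 8 libraries. Of the 8 junction partners measured only F11r was higher in SL and SFGL, against the shares of all genes given above. It was at 5.44 FPKM in uFIB against 28.4 in SL and 19.4 in SFGL on day 12. On that day 2 of the 8 were lower in SL and 6 in SFGL, against 18.4% and 21.7% of all genes. On day 21, 0 were lower in SL and 1 in SFGL, against 15.9% and 20.4%. F11r was also called higher in FGL on day 21 (2.63 to 5.31 FPKM), where 1.13% of all genes were.

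Markers of blood cells moved with the higher members. All 5 blood progenitor markers were higher in SL and in SFGL on both days, against the same shares of all genes as above. Of these, only Itga2b reached 1 FPKM in uFIB. The others passed the minimum through the reprogrammed library alone, which favours a call in that direction. Their summed levels, Itga2b included, were 1.61 FPKM in uFIB against 222 in SL and 319 in SFGL on day 12, and 1.75, 224 and 366 on day 21. CD41 (Itga2b) was 49.7 FPKM in SL and 108 in SFGL on day 12, the same order as Pecam1. In the library labelled FGL on day 12 the 5 markers summed to 33.3 FPKM and Pecam1 stood at 0.562, and on day 21 to 1.40 and 0.122. Of the 6 megakaryocyte markers 5 were higher in SL and in SFGL on day 12 and 4 on day 21, where between 14.6% and 16.9% of all genes were higher, with summed levels of 19.4 FPKM in uFIB against 105 in SL and 85.9 in SFGL on day 12. Among the higher ones, only Gp1bb and Itgb3 reached 1 FPKM in uFIB on day 12, and none did on day 21. The rest passed the minimum through the reprogrammed library alone. PECAM1 and ESAM are carried by megakaryocytes and platelets. What part of the Pecam1 and Esam values came from such cells was not tested.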

How the data were processed

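Stage RNA was ribosome-depleted, and SOLiD 50-base single-end reads were aligned to mm10. The deposited FPKM values were made by the authors with Cufflinks: 1 value per start site and stage, replicates combined, and 1 column per library for the fibroblasts. The study's methods name SHRiMP for SOLiD reads, whereas the submitters' processing notes list TopHat, Bowtie and HOMER; which aligner made each table is uncertain, and versions are not given in the sources used here. Start site rows were summed per gene name, and rows with several names (94 and 146 in the 2 tables) were divided among the names. The tables were normalized separately and were compared only within themselves; 0 per-sample columns were left unused. Changes are differences of log2(FPKM + 1), which understate those of low genes; calls needed a 2-fold ratio after adding 0.001 and 1 FPKM in either condition. The study used the 2-fold and 1 FPKM limits beside a count-based test with a p-value limit, which was not run here, and the 0.001 for clustering. The call function was tested on simulated data. Fibroblast reads were approximated from FPKM, the longest coding transcript (GENCODE M21) and the smallest FPKM step of single-transcript genes. The depth behind the stage values is unknown, since replicates were combined. All 10 members are named by rule, as are the 3 genes of highest Pearson's r over the 6 stages among genes with at least 10 FPKM; partner and marker lists were counted whole. Members and lists were chosen with earlier results of these data known. Python 3.11.15, pandas 2.3.3, NumPy 2.4.6 and matplotlib 3.10.9 were used.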

Additional observations from a re-analysis of the deposited data

Results flagged for a closer look

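Tek moved opposite ways in the libraries labelled SL on the 2 days. On the log2(FPKM + 1) scale it was higher than in uFIB by 0.39 on day 12 (1.29 against 0.748 FPKM) and lower on day 21, by -0.36 (0.404 against 0.797 FPKM). The difference between the days was not tested, each value is a single library, and the 4 values rest on about 155, 58, 19 and 87 reads. Neither change was called.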

How the results depend on the processing

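No paired analysis was possible because each stage has 1 value over its replicates and each fibroblast condition 1 library; for the same reason no replicate could be left out. Setting all conditions to the same upper quartile left every count of members within 1.5 times. Taking the highest start site row alone could not change the counts, since each member with stage values has a single row. Other limits moved some counts. With a minimum of 5 FPKM, 1 member was lower from ESC to MES, 1 higher from MES to HB, 3 lower from HP to MAC, 1 higher in SL on day 12, 2 in SL and 1 in SFGL on day 21, and 0 lower in SFGL than in SL on day 12. With a limit of 4-fold, 0 were lower from HB to HP, 0 lower in SL or SFGL on day 12, and 0 differed between SFGL and SL in the directions called on day 12 and day 21. With no minimum, 2 were lower in SL and 2 in SFGL on day 12, 5 higher in SFGL on day 12, 2 higher in SFGL than in SL on day 21, and 5 lower between the uFIB libraries. With a pseudocount of 1, 0 were lower in SFGL than in SL on day 12. Against the mean of both uFIB libraries, 0 were lower in SL on day 12. Without HE, 6 members were highest in HP and 3 in HB. Of the single log2 changes, a pseudocount of 0.1 moved 54 of 144 by over 1.5 times, the upper quartile 3 and the uFIB mean 6 of 60; no called change reversed.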
